A study of Mus musculus with 45 samples.

Results

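The genes of the mitochondrial respiratory chain and ATP synthase that are encoded in the nucleus were followed in RNA sequencing of the nucleus accumbens of HDID-1 mice. They were taken by symbol: Ndufa, Ndufb, Ndufc, Ndufs and Ndufv genes with a number, Uqcr genes, Cox4 to Cox8 genes, Atp5 genes and the 4 genes Sdha to Sdhd. Of the 24421 gene symbols counted, 84 matched, and the 74 with a mean of at least 5 CPM (counts per 1000000 assigned reads) over all libraries were kept. All 74 passed the filter on low counts, which left 15852 genes for testing. The respiratory chain passes electrons from NADH and succinate to oxygen through 4 complexes and pumps protons across the inner mitochondrial membrane, and ATP synthase (complex V) uses the proton gradient to make ATP. Neurons depend on this pathway for the ATP that ion pumping and synaptic transmission consume. Its subunits come from both genomes. Genes of the mitochondrial genome were not analysed here.

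HDID-1 is a mouse line bred for high blood alcohol after drinking in the dark, here from selection generation S35.G37, and all 45 mice were female. Their age is not given in the labels. Every mouse, controls included, received 0.5 uL of each of 2 viruses in the nucleus accumbens: one carrying Cre-GFP under the CMV promoter and one carrying a Cre-dependent hM3Dq-mCherry construct under the human synapsin promoter. hM3Dq is an engineered muscarinic receptor that clozapine N-oxide (CNO) activates, and the tissue samples hold infected and uninfected cells together. The 12 EtOH CNO mice drank alcohol and received CNO at 1 mg/kg in weeks 2 to 5, and the 11 EtOH VEH mice drank alcohol and received vehicle in those weeks. The 11 H2O CNO mice drank water and received the same dose of CNO, and the 11 H2O VEH mice drank water and received vehicle. All mice received vehicle in week 1 and again in week 6. Each library is 1 mouse.

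Reads assigned to genes numbered 26.8 to 39.5 M per library. Markers of medium spiny neurons, the main neurons of the nucleus accumbens, were present in every library: Drd1 ranged from 182 to 308 CPM and Drd2 from 85.5 to 168 CPM. The hemoglobin genes Hba-a1 and Hbb-bt were at 0 in all 45 libraries, and Hba-a2 and Hbb-bs in 44. Alas2, the remaining blood marker, was counted in every library, at 0.521 to 3.93 CPM. How much blood the samples held was not tested. Markers of cortical glutamatergic neurons summed to between 88.8 and 879 CPM. EtOH VEH replicates 5 and 10 and H2O VEH replicate 9 stood apart by their immune genes and are called the immune-rich libraries. The share of reads that the counting program placed in no counted feature (the no-feature share) ran from 15.6% to 21.9%. Which features were counted is not given in the sources used here.

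The 74 genes together took 1.00% of the assigned reads, with a range over libraries of 0.892% to 1.16%. By complex the summed level was 2804 ± 185 CPM for the 34 subunits of complex I, 812 ± 49.3 CPM for the 4 of complex II and 997 ± 75.4 CPM for the 8 of complex III (SD, n = 45). It was 1818 ± 159 CPM for the 11 subunits of complex IV and 3464 ± 200 CPM for the 14 of ATP synthase (SD, n = 45). The other 3 members are not subunits. Cox7a2l joins complexes III and IV into supercomplexes, Atp5s encodes the coupling factor B, and Atp5sl, now named Dmac2, encodes an assembly factor of complex I.

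Per kilobase of transcript, the median gene of each complex lay at 96.9 CPM per kb in complex I, 102 in complex II, 126 in complex III, 207 in complex IV and 151 in ATP synthase. Within each complex the spread was wide. The highest value of all was that of Atp5b, which encodes the catalytic beta subunit of ATP synthase, at 612 CPM per kb. Cox8a, a small subunit of complex IV, followed within its complex at 564 CPM per kb, against 18.0 CPM per kb for Cox7c, another small subunit. In complex I the values ran from 6.37 CPM per kb for Ndufb4, an accessory subunit of the membrane arm, to 212 CPM per kb for Ndufb9, an accessory subunit of the same arm. In complex II they ran from 33.2 CPM per kb for the membrane anchor Sdhc to 161 CPM per kb for Sdha, the flavoprotein that oxidises succinate. In complex III the range was 50.2 CPM per kb for Uqcrb to 273 CPM per kb for Uqcrh, both small subunits.

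In CPM, before division by length, the lowest subunit of complex I was Ndufb4. The highest and lowest were Sdha (466 CPM) and Sdhd in complex II, Uqcrc2 (261 CPM) and Uqcrb in complex III, Cox4i1 (393 CPM) and Cox7c in complex IV, and Atp5b (1173 CPM) and Atp5l in ATP synthase. Just inside the limit of 5 CPM lay Ndufb4 at 6.19, Atp5l at 7.03 and Cox7c at 9.71 CPM. Just outside it lay Cox6a2 at 3.68, Cox6b2 at 2.48 and Atp5g2 at 2.29 CPM. Cox6a2 is the form of Cox6a found in heart and skeletal muscle. Cox4i2, the alternative form of Cox4i1, averaged 1.63 CPM.

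The lowest levels were found partly among genes whose sequence recurs elsewhere. For 9 of the 74 genes, at least 25% of the 50-base windows of the transcript also occur in the transcript of another gene, mostly a processed pseudogene. Genes that overlap the same locus were left out of this measure. Their median level was 50.2 CPM per kb (6.37 to 80.0), against 115 CPM per kb (12.1 to 612) for the other 65. For 41 of those 65 no window was shared with a gene outside the locus. The 9 genes and their shared windows were Atp5l (68.5%, with 12 pseudogenes), Atp5g1 (66.0%), Cox7c (53.0%), Atp5h (50.5%), Uqcrb (43.2%), Ndufb4 (37.0%), Ndufs3 (35.8%), Ndufa12 (26.2%) and Cox5b (25.9%). The counting mode is not given in the sources used here, so the levels of these genes are uncertain, and whether shared reads were lost was not tested. Exons of further members overlap exons of another gene. Examples on the opposite strand are Uqcrc2 (26.6% of the transcript), Cox5a (41.7%), Atp5j (22.5%), Ndufb6 (39.0%) and Ndufa13 (30.0%). Examples on the same strand are Ndufb9 (28.6%) and Ndufb8 (19.7%). The strand setting is not given either.

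**Figure D1:**
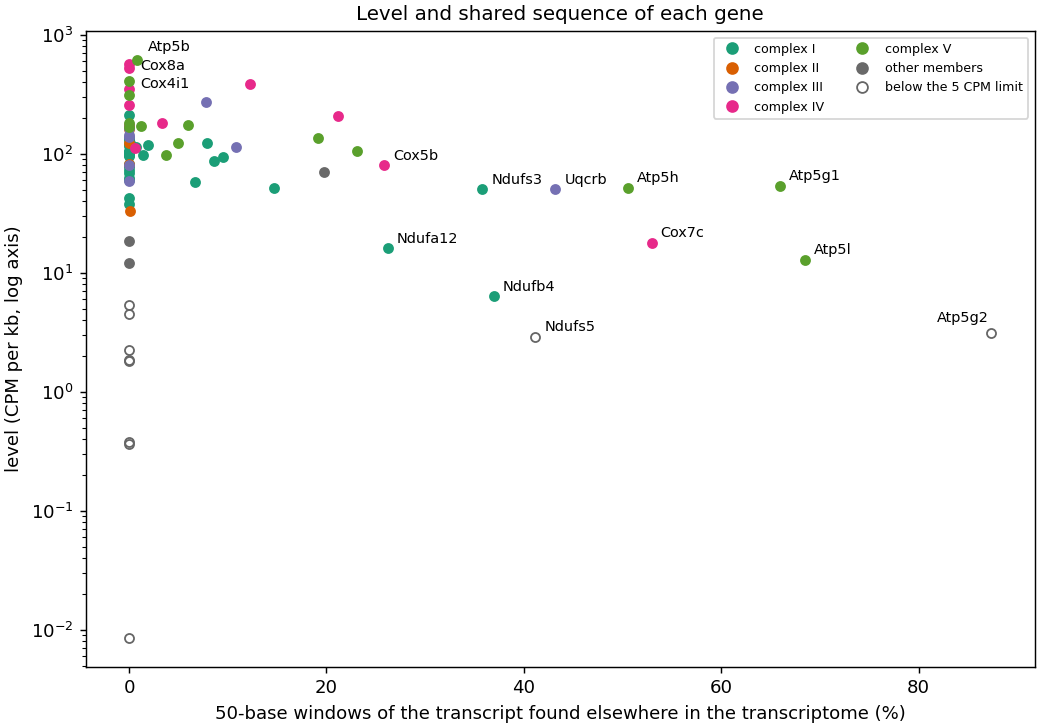
Level in CPM per kb (log axis, mean of 45 libraries) of each gene against the share of its transcript's 50-base windows found in other genes' transcripts. Genes that overlap the same locus are left out of that share. Filled points are the 74 genes by complex and open circles are the matching symbols below 5 CPM; the 9 genes at or beyond 25% lie between 6.37 and 80.0 CPM per kb.

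The c subunit of ATP synthase, which forms the proton-driven ring, shows what is shared. It is encoded by 3 genes, whose last 75 codons translate into the same amino acids. Atp5g3 was counted at 224 CPM, Atp5g1 at 32.0 CPM and Atp5g2 at 2.29 CPM, and 87.4% of the windows of Atp5g2 recur elsewhere, with the processed pseudogene Gm10175 among the matches. The 90 coding bases of that stretch in which Atp5g2 and Atp5g3 differ most are shown, from GENCODE vM21 transcripts on GRCm38, with capitals at the bases that differ from Atp5g2 (chromosome 15, minus strand). The best matching stretch of Gm10175 (chromosome 7, minus strand) has 0 differences, that of Atp5g1 (chromosome 11, minus strand) has 14 and that of Atp5g3 (chromosome 2, minus strand) has 25.
Atp5g2: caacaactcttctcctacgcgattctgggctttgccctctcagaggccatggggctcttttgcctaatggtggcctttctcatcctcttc
Gm10175: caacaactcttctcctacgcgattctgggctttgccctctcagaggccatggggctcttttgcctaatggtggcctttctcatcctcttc
Atp5g1: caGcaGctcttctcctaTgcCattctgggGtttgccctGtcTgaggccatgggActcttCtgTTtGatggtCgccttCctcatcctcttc
Atp5g3: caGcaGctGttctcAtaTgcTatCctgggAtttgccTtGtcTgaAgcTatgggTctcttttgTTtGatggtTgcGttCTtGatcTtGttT

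Spread between mice was measured by the coefficient of variation. The coefficient of variation over the 45 libraries had a median of 8.51% (4.23% to 14.0%), against 8.88% for all tested genes at or above 5 CPM. It was lowest for Ndufa10 (4.23%), an accessory subunit of complex I, Ndufv1 (4.92%), which binds NADH, and Atp5a1 (5.38%), the alpha subunit of ATP synthase. It was highest for Cox7c (14.0%), Cox7a2l (13.3%) and Ndufa1 (11.0%).

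The genes varied together. After subtraction of group means, the median Pearson correlation over 45 libraries between pairs of the 74 genes was 0.70 (quartiles 0.53 and 0.82), and 99.4% of the 2701 pairs were positive. Cytosolic ribosomal protein genes had a median of 0.27 and all tested genes a median of -0.01. All genes of a library share its RNA, depth and scaling. With the no-feature share regressed out the median was 0.56 for the 74 genes. Uqcrh (median 0.85 with the others), Atp5j2 (0.85) and Ndufa4 (0.84), a subunit now placed in complex IV, were the most typical members. Atp5sl (0.09), Ndufa10 (0.33) and Atp5s (0.34) had the lowest, and Atp5sl and Atp5s are not subunits.

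RefSeq promoters (GRCm38.p6, 250 bases before to 50 after the start) were found for 63 of the 74. Those not matched included Ndufs1, Ndufb9, Ndufa2, Sdhc, Uqcrc2, Uqcrq, Uqcrb, Cox4i1, Cox6c and Atp5a1. Motifs were searched by their letters on both strands. GCATGCG, bound by NRF1, a regulator of respiratory genes, occurred in 14.3% of the 63, in 3.58% of all 32851 promoters and in 5.67% of the 15780 promoters of tested genes. CCGGAAG, bound by GABP (NRF2) and other ETS factors, occurred in 23.8%, 8.86% and 14.9% of the same 3 sets. ATGGCGG, bound by YY1, occurred in 14.3%, 4.05% and 6.77%, and GGGCGG, bound by Sp1, in 39.7%, 35.7% and 58.9%. None of these motifs contains another, and the matches are letters, not sites of binding. A promoter of complex II, one of complex IV and one of ATP synthase are shown, chosen for the matches they hold, with capitals at the NRF1, ETS and YY1 matches on either strand. That of Sdhb, the iron-sulfur subunit of complex II, lies at chr4:140961021-140961320 on the plus strand and holds the NRF1 and the ETS letters. That of Cox6a1 lies at chr5:115348909-115349208 on the minus strand and holds both as well, the NRF1 letters on both strands with overlap. That of Atp5b lies at chr10:128083057-128083356 on the plus strand and holds the YY1 letters.
Sdhb: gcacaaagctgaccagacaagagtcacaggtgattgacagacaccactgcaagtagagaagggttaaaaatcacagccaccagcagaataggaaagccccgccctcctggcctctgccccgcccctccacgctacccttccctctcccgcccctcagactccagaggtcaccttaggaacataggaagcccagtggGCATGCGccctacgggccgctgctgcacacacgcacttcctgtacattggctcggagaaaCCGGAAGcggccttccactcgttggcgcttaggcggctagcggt
Cox6a1: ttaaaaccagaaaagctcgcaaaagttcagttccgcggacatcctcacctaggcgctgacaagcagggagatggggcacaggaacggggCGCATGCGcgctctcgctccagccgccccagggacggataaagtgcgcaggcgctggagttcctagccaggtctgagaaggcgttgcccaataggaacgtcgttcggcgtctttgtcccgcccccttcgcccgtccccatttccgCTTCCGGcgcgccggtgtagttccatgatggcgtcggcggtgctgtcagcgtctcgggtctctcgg
Atp5b: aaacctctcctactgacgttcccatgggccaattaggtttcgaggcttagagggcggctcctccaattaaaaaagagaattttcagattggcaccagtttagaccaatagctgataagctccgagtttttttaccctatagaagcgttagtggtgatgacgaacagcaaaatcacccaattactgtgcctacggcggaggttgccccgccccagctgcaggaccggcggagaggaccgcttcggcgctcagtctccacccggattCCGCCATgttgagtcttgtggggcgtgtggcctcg

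The libraries were split by their no-feature share into classes that crossed the treatment groups, and the respiratory genes differed between them. The split was set at the widest gap between neighbouring shares, from 18.4% to 19.1%, with 21 libraries above it (7 EtOH CNO, 5 EtOH VEH, 4 H2O CNO and 5 H2O VEH) and 24 below it (5, 6, 7 and 6 in the same order). That gap is 0.681 points wide, little more than those from 20.8% to 21.4% (0.661 points, with 2 libraries above) and from 15.6% to 16.2% (0.566 points, with 1 library below), so that its width alone does not set the classes apart. These classes were defined from the data after they were seen and are not groups of the study. All 15 libraries whose running number in the sample title is divisible by 3 lay above the gap, as did 6 of the other 30. The labels do not say what the running number stands for, and the cause of the classes was not tested.

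Above the gap the respiratory genes were lower. In the edgeR quasi-likelihood test with group and class as terms, 64 of the 74 were lower and 0 higher, where 25.7% of all tested genes were lower and 26.2% were higher. The median log2 difference was -0.16 (-10.5%), against -0.01 for all tested genes, and 73 of the 74 differences were negative. Uqcrc2 (chr7:120635189-120659523), a core subunit of complex III, had 214, 241 and 253 CPM above the gap (lowest, median and highest) and 249, 281 and 297 CPM below it. Its classes overlapped only between 249 and 253 CPM, and its log2 difference was -0.22 ± 0.02 (SE, adjusted p = 6.7e-12). Atp5f1, subunit b of the stalk that holds ATP synthase, had 146, 158 and 167 CPM above the gap and 159, 183 and 198 CPM below it (-0.21 ± 0.02, adjusted p = 6.25e-11).

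The difference ran through all complexes. Atp5c1, the gamma subunit that turns inside ATP synthase, had 176, 189.9 and 205 CPM above the gap and 193, 215 and 237 CPM below it (-0.19 ± 0.02, adjusted p = 1.38e-10). Sdhd, a membrane anchor of complex II, had 85.9, 93.6 and 99.3 CPM above the gap and 97.1, 107 and 115 CPM below it (-0.19 ± 0.02, adjusted p = 1.82e-10). Cox4i1, a regulatory subunit of complex IV, had 331, 359 and 420.3 CPM above the gap and 353, 418 and 469.8 CPM below it (-0.19 ± 0.03, adjusted p = 2.64e-07). Ndufs1, the largest iron-sulfur subunit of complex I, was also lower above the gap, with a log2 difference of -0.17 ± 0.02 (adjusted p = 9.84e-09). Ndufa10 did not pass: it had 115, 121 and 132 CPM above the gap and 115, 122 and 140.4 CPM below it (-0.01 ± 0.02, adjusted p = 0.582). Every one of the 74 genes had at least some overlap between the classes.

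Taken by title number alone, which is a label and not a measurement, the 15 libraries with a number divisible by 3 were set against the other 30. All 15 lie above the gap, and this division too was made after the data were seen. The test therefore repeats part of the comparison across the gap. In the edgeR test 56 of the 74 genes were lower in the 15 libraries and 0 higher, where 20.3% of all genes were lower and 21% higher, with a median log2 difference of -0.13 (-8.76%). Sdhd (-0.16 ± 0.03, adjusted p = 2.2e-05), Atp5c1 (-0.16 ± 0.03, adjusted p = 2.43e-05) and Cox7a2, a small subunit of complex IV (-0.21 ± 0.04, adjusted p = 2.54e-05), had the smallest p. With the no-feature share added to the model 0 of the 74 and 0% of all genes passed, at a median of -0.02, and 1 of the 74 had an unadjusted p under 0.05 (6.16% of all genes did).

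**Figure D2:**
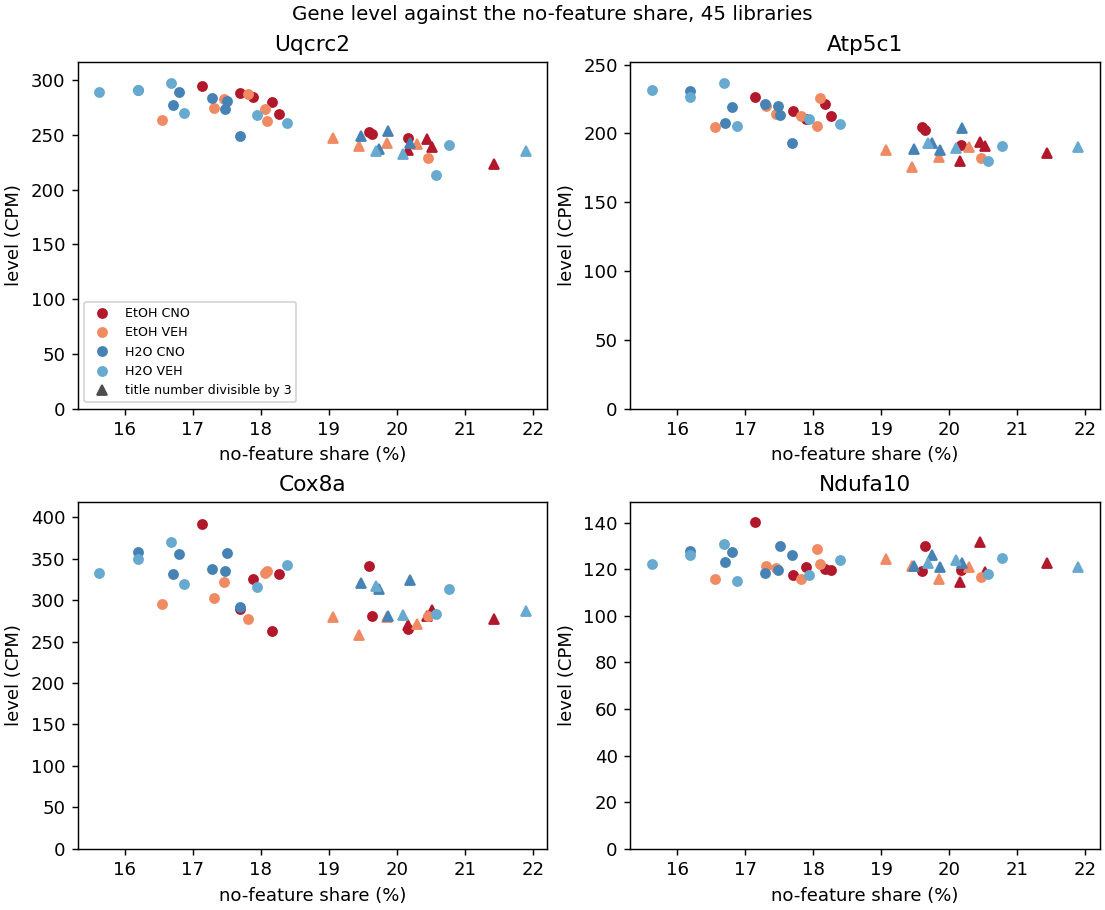
Level in CPM of Uqcrc2, Atp5c1, Cox8a and Ndufa10 in each of 45 libraries against the no-feature share in percent, coloured by group; triangles mark libraries with a title number divisible by 3. For Uqcrc2 the libraries above the gap lie at 214 to 253 CPM and those below it at 249 to 297 CPM, while Ndufa10 lies at 115 to 132 and 115 to 140.4 CPM.

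Treated as a continuous measure, the no-feature share gave the same count. Within groups 64 of the 74 genes were lower at higher share and 0 were higher, where 27.4% of all genes were lower and 26.5% higher. The median log2 slope per SD of the share was -0.08, against -0.01 for all genes. By complex 31 of 34, 4 of 4, 8 of 8, 9 of 11 and 11 of 14 subunits of complexes I to V passed, and 1 of the 3 other members. The smallest p belonged to Uqcrc2 (-0.12 ± 0.01 per SD, adjusted p = 1.35e-14), Atp5c1 (-0.10 ± 0.01), Atp5f1 (-0.11 ± 0.01), Sdha (-0.08 ± 0.01) and Sdhd (-0.10 ± 0.01). The 10 that did not pass were Atp5sl, whose slope of 0.02 was the only positive one, and Atp5h, Atp5g1, Ndufs7, Cox5a, Ndufv3, Cox5b, Atp5d, Ndufa10 and Atp5s, with slopes between -0.04 and -0.01. Of these 10, Atp5h, Atp5g1 and Cox5b are among the genes with shared sequence.

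Within the classes few genes passed. With the class as a covariate, 3 of the 74 still passed, Uqcrc2 (-0.08 per SD, adjusted p = 0.00568), Sdha (-0.07, adjusted p = 0.00633) and Atp5a1 (-0.07, adjusted p = 0.017), where 4.17% of all genes were lower. Among the 21 libraries above the gap 0 of the 74 passed in the edgeR test (0.137% of all genes were lower), 4 had an unadjusted p under 0.05 (16.2% of all genes did), and 24 slopes were negative. Of the 64 genes lower over all libraries, 42 had a positive slope there. Among the 24 below it 71 slopes were negative and only Ndufb11, an accessory subunit of complex I, passed (-0.19 per SD, adjusted p = 0.0103), where 1.5% of all genes were lower. There 18 of the 74 had an unadjusted p under 0.05 in the edgeR test. The share of all genes with such a p below the gap is not given here, so that this count cannot be set against it. The median slope per SD was 0.02 above the gap and -0.07 below it, against -0.003 and -0.009 for all genes.

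Transcript length and other cell markers moved with the share as well. The 74 genes are short, with a median of 824 bases against 2863 bases for tested genes, and 66 of them fall among the shortest 25% of tested genes (55 to 1802 bases). Among these the median slope was -0.08 for the 66 and -0.02 for all genes, and 87.9% of the 66 were lower, against 31.9% of all genes. Of the 8 endothelial markers 6 were higher at higher share, where 26.5% of all genes were. Of the 9 astrocyte markers 5 were lower, where 27.4% of all genes were. Their summed levels ranged over the libraries from 164 to 267 CPM for endothelial and from 3077 to 4822 CPM for astrocyte markers. Of the 12 medium spiny neuron markers 1 was higher and 1 lower. In bulk tissue fewer cells of a type and less RNA per cell cannot be told apart, and the part of these markers and of length in the result was not tested.

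**Figure D3:**
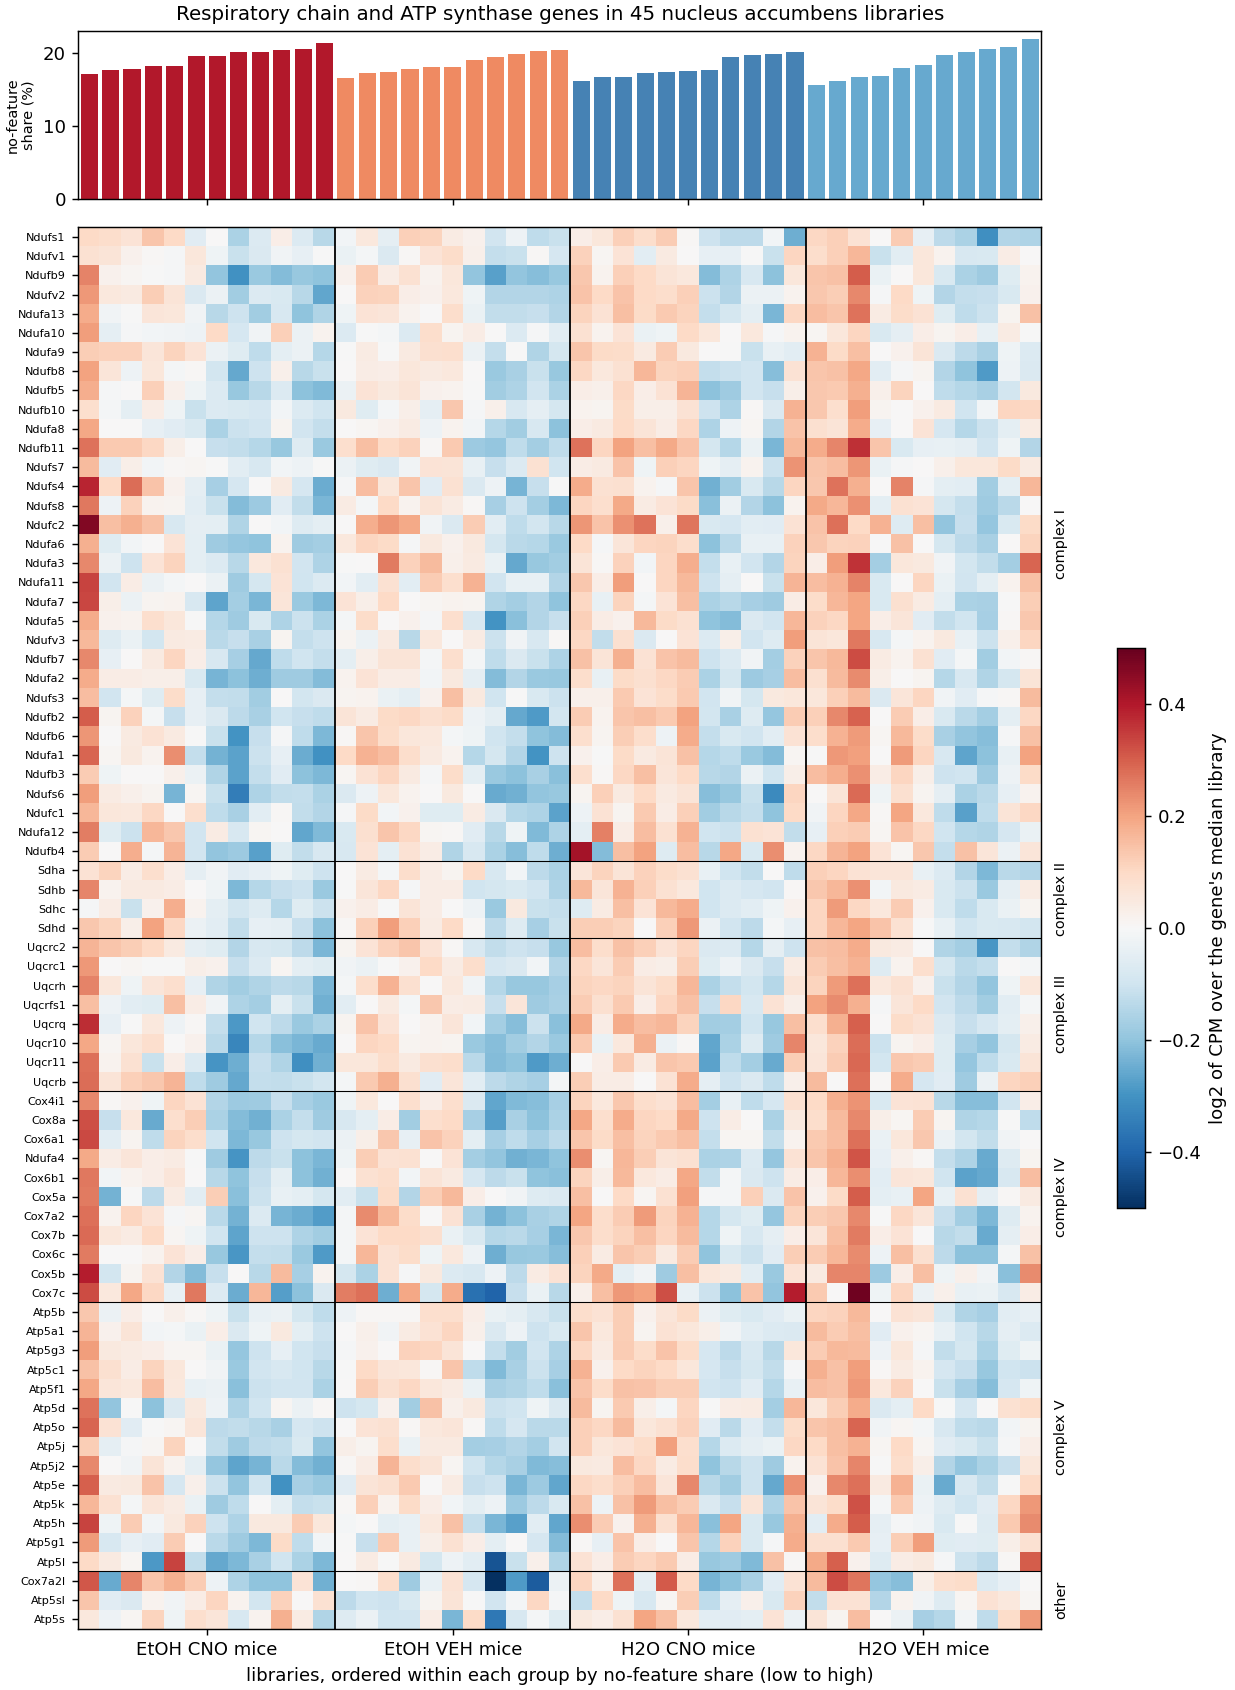
Level of 73 of the 74 genes (rows, by complex) in each of 45 libraries (columns) as the log2 ratio to the gene's median library, with the no-feature share of each library in percent as bars above. Libraries are ordered within each group by that share; in every group many genes are lower (blue) in libraries past the gap between 18.4% and 19.1%, though not in each of them, and 64 of 74 pass the slope test.

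The question whether alcohol drinking changed these genes was addressed by setting alcohol drinkers against water drinkers. Summed over the 74 genes, EtOH CNO mice had 9035, 9868 and 11546 CPM (lowest, median and highest) and EtOH VEH mice 9143, 9956 and 10489 CPM. H2O CNO mice had 9395, 10453 and 10929 CPM and H2O VEH mice 9018, 10044 and 11532 CPM. The medians were lower in alcohol drinkers under both treatments, and the groups overlapped over most of their range. Title numbers run from 1 to 24 in alcohol drinkers and from 25 to 46 in water drinkers, so that fluid and this running number cannot be told apart. The S numbers in the titles, read as 8 blocks, put mice of both fluids in every block. With these blocks as a covariate the averaged comparison had 71 negative estimates at a median of -0.05, 20 genes lower at an unadjusted p under 0.05 and a smallest adjusted p of 0.151. In either direction 1943 of all 15852 genes had such an unadjusted p in that fit.

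Averaged over treatments, 71 of the 74 genes had a lower estimate in alcohol drinkers, where 48.1% of all genes did. The median log2 fold change was -0.06 (-3.95%), against 0.00 for all genes. None of the 74 passed the edgeR threshold, as none of all tested genes did (0%). At an unadjusted p under 0.05, 18 of the 74 were lower and 0 higher, where 5.03% of all genes were lower, and DESeq2 and limma-voom each found 17 lower and passed 0 after adjustment. Those 18 became 11 with the no-feature share as a covariate, where 12 of the 74 and 2940 of all 15852 genes had such a p. The 18 became 40 without EtOH CNO replicate 3, 28 without H2O VEH replicate 9 and 35 without the 3 immune-rich libraries. In either direction 1900 of all 15852 genes had such a p with all libraries, and 2327 of 15895 without the 3 immune-rich ones. For the runs without a single library the count over all genes was not taken. Estimates were negative for 33 of 34, 3 of 4, 8 of 8, 11 of 11 and 14 of 14 subunits of complexes I to V, with median log2 fold changes of -0.05, -0.04, -0.06, -0.08 and -0.06. The 3 positive estimates were those of Ndufs1 (0.03), Sdha (0.00) and Atp5sl (0.00). Genes that vary together across libraries are not independent counts, so that the number of negative signs carries no test.

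The members with the smallest p were spread over the complexes. Ndufb4 (chr16:37647602-37654368) had 5.08, 5.84 and 6.95 CPM in EtOH CNO and 5.18, 5.80 and 6.45 CPM in EtOH VEH mice. It had 5.28, 6.81 and 8.18 CPM in H2O CNO and 5.64, 6.42 and 7.06 CPM in H2O VEH mice. The groups overlapped, and the log2 fold change was -0.14 ± 0.04 (95% interval -0.23 to -0.05, adjusted p = 0.263). Ndufb4 is the least expressed member and shares sequence with pseudogenes.

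Ndufs7 (chr10:80249105-80256794), the subunit of complex I that holds the iron-sulfur cluster next to ubiquinone, had 73.5, 77.4 and 86.9 CPM in EtOH CNO mice and 71.8, 75.7 and 82.1 CPM in EtOH VEH mice. It had 72.1, 79.8 and 90.9 CPM in H2O CNO mice and 76.0, 80.9 and 90.7 CPM in H2O VEH mice. Its log2 fold change was -0.07 ± 0.02 (adjusted p = 0.277). The 2 alcohol groups had the lower medians, within overlapping ranges, and Ndufs7 was one of the 10 genes without a called slope on the no-feature share. Cox8a (chr19:7215158-7217616) had 263, 284 and 392 CPM in EtOH CNO mice and 258, 281 and 335 CPM in EtOH VEH mice. It had 281, 332 and 358 CPM in H2O CNO mice and 282, 316 and 370.3 CPM in H2O VEH mice (-0.12 ± 0.04, adjusted p = 0.283). The highest Cox8a value of all 45 libraries was that of an EtOH CNO mouse.

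Of the other members that carry catalytic or regulatory roles none had an adjusted p under the threshold. Atp5b had medians of 1153 CPM in EtOH CNO, 1177 in EtOH VEH, 1189 in H2O CNO and 1173 in H2O VEH mice, with all libraries between 1045 and 1314 CPM. Atp5a1 had medians of 997, 1004, 1026 and 979 CPM in the same order. Sdha had medians of 461, 467, 488 and 455 CPM, and Sdhb 139, 139, 145 and 144 CPM. Uqcrc1, a core subunit of complex III, had medians of 235, 233, 242 and 236 CPM. Uqcrfs1, the Rieske iron-sulfur protein, had 106, 110.0, 116 and 109.7 CPM. Cox4i1 had 379, 392, 417 and 406 CPM, Ndufa4 had 207, 212, 225 and 216 CPM and Ndufv1 had 162, 162, 163 and 165 CPM. Atp5g1 had 30.8, 31.8, 32.0 and 33.6 CPM and Atp5g3 had 223, 225, 234 and 222 CPM. For each of these genes the ranges of the 4 groups overlapped.

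Under vehicle alone the alcohol comparison gave 71 negative estimates (49.2% of all genes were negative) at a median of -0.06. The edgeR test passed 0 of the 74 and 0% of all genes, and 5 of the 74 were lower at an unadjusted p under 0.05 (2.42% of all genes). Those 5 became 14 with the S-number blocks, 12 with the library class and 11 with the no-feature share as a covariate, and 10 without the 3 immune-rich libraries. In either direction such a p was held by 1326 of all 15852 genes without covariates and by 1624, 1775 and 1907 with them. Without the 3 immune-rich libraries it was held by 1299 of 15895. The smallest p were those of Ndufs7 (-0.10, adjusted p = 0.44), Ndufb4 (-0.16, adjusted p = 0.499) and Atp5h, subunit d of the ATP synthase stalk (-0.13, adjusted p = 0.551). Under CNO it gave 70 negative estimates (48.2% of all genes) at a median of -0.06, with 0 passing (0% of all genes) and 6 lower at an unadjusted p under 0.05 (3.66% of all genes). There the smallest p were those of Atp5j, coupling factor 6 of ATP synthase (-0.09), Cox8a (-0.13) and Cox5a, a subunit of complex IV (-0.10). Atp5j had 87.4, 96.2 and 109 CPM in EtOH CNO mice and 91.0, 105 and 116 CPM in H2O CNO mice. Cox5a had 97.6, 111 and 138 CPM in EtOH CNO mice and 109, 121 and 133 CPM in H2O CNO mice. DESeq2 and limma-voom also passed 0 of the 74 in both comparisons.

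The no-feature share moved with part of this pattern. It averaged 19.3 ± 1.37% in EtOH CNO (SD, n = 12), 18.6 ± 1.31% in EtOH VEH (n = 11), 18.1 ± 1.45% in H2O CNO (n = 11) and 18.6 ± 2.11% in H2O VEH mice (n = 11). The difference between alcohol and water drinkers was 1.18 points under CNO (two-sided permutation p = 0.0589, adjusted over 6 comparisons 0.353) and -0.03 points under vehicle (permutation p = 0.968). Averaged over treatments it was 0.573 points (two-sided permutation p = 0.236, adjusted 0.474). With the share as a covariate the comparison under CNO had 40 negative estimates (49.8% of all genes) and a median of 0.00. Without the covariate 6 of the 74 were lower there at an unadjusted p under 0.05, and with it 0 were. The comparison under vehicle had 71 (48.4% of all genes) and a median of -0.06, and the averaged one had 64 (49% of all genes) and a median of -0.03. In that averaged fit 0.618% of all genes passed and 0 of the 74. Ndufb4 (-0.12, adjusted p = 0.105) and Ndufs1 (0.06, adjusted p = 0.111) came nearest. With the class as a covariate the comparison under CNO had 58 negative estimates at a median of -0.03 and 1 gene lower at an unadjusted p under 0.05, and with the S-number blocks it had 64 at a median of -0.04. With the class the averaged comparison had 71 negative estimates at a median of -0.04. With divisibility of the title number by 3 as the covariate, the averaged comparison had 71 at a median of -0.06. That covariate does not adjust for the running number itself.

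**Figure D4:**
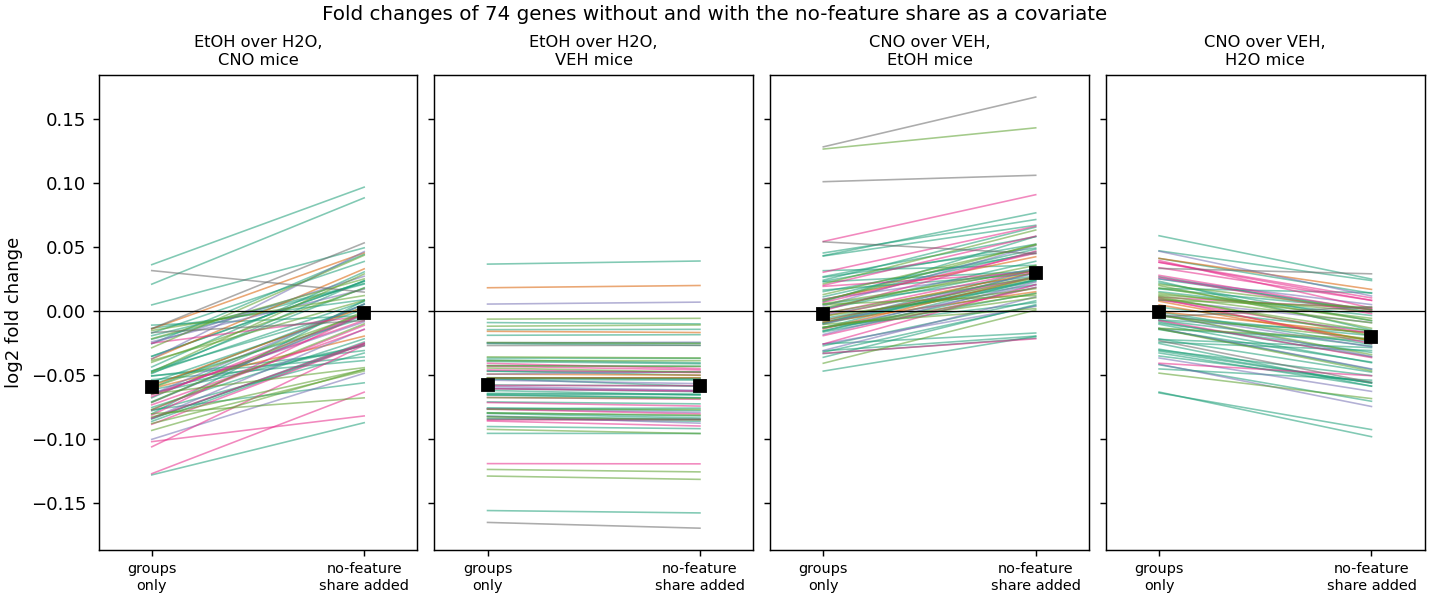
log2 fold changes of the 74 genes in 4 comparisons, each without and with the no-feature share as a covariate, 1 line per gene coloured by complex and black squares for the medians. For alcohol under CNO the median is -0.06 without and 0.00 with the covariate, and for alcohol under vehicle it is -0.06 in both fits.

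Shortness and other cell types also went with the alcohol comparison. Among the shortest 25% of all tested genes the median log2 fold change of alcohol averaged over treatments was -0.03, against 0.04 in the longest 25% and -0.06 for the 66 respiratory genes among the shortest. All 9 astrocyte markers had positive estimates (median 0.09) and all 7 ependymal markers negative ones (median -0.32), and none passed. Astrocyte markers summed to 3480 to 4296 CPM in EtOH CNO, 3251 to 4605 in EtOH VEH, 3077 to 4160 in H2O CNO and 3375 to 4822 in H2O VEH mice. Ependymal markers summed to 8.44 to 20.4 CPM in EtOH CNO, 8.37 to 32.4 in EtOH VEH, 11.1 to 23.4 in H2O CNO and 8.65 to 28.1 in H2O VEH mice. Their part in the result was not tested.

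The question whether CNO changed the genes was asked within each fluid. In alcohol drinkers 0.871% of all tested genes passed, all of them lower with CNO, and 0 of the 74 respiratory genes did. Those 138 genes depended on the fit. None of all genes passed with the S-number blocks, with limma-voom or without the 3 immune-rich libraries. With the no-feature share as a covariate 18 passed as lower and 1 as higher, and with DESeq2 178 and 1. The estimates of the 74 genes were split, with 38 negative and 36 positive (48.3% of all genes were negative) and a median of 0.00. At an unadjusted p under 0.05, 2 of the 74 were higher, where 1.46% of all genes were. Atp5s had 16.1, 18.3 and 20.3 CPM in EtOH CNO mice and 14.0, 17.1 and 19.1 CPM in EtOH VEH mice (log2 fold change 0.10, adjusted p = 0.547). Atp5h had 28.5, 32.9 and 40.1 CPM in EtOH CNO mice and 26.3, 30.7 and 35.2 CPM in EtOH VEH mice (0.13, adjusted p = 0.559). Cox7a2l had 63.6, 76.8 and 93.7 CPM in EtOH CNO mice and 51.8, 73.6 and 80.4 CPM in EtOH VEH mice (0.13, adjusted p = 0.867). All 3 pairs of groups overlapped. With the no-feature share as a covariate 5 of the 74 estimates were negative, at a median of 0.03, against -0.0002 for all genes. In that edgeR fit 6 of the 74 were higher at an unadjusted p under 0.05 and 0 passed. In either direction 1579 of all 15852 genes had such a p there.

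In water drinkers 0.0694% of all genes passed, and 0 of the 74. Here too 38 estimates were negative (50.4% of all genes were), and 0 of the 74 had an unadjusted p under 0.05, where 5.54% of all genes did. The smallest p were those of Ndufb10, an accessory subunit of complex I (-0.05), Ndufs4, an accessory subunit whose loss causes Leigh syndrome (-0.06), and Sdha (0.04). Ndufs4 had 60.4, 72.2 and 80.9 CPM in H2O CNO mice and 63.1, 71.2 and 86.1 CPM in H2O VEH mice. Ndufb10 had 89.4, 101 and 112 CPM in H2O CNO mice and 92.9, 103 and 115 CPM in H2O VEH mice. Both pairs overlapped.

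Averaged over fluids, CNO had 34 negative and 40 positive estimates (49.8% of all genes were negative), 0 of the 74 passed and 0.889% of all genes did. Atp5s (0.07, adjusted p = 0.507), Atp5h and Ndufb10 had the smallest p, and 1 of the 74 was higher at an unadjusted p under 0.05, where 3.35% of all genes were. The interaction of fluid and treatment passed 0 of the 74 and 0% of all genes, with 42 negative estimates (53.7% of all genes) and 0 of the 74 at an unadjusted p under 0.05 (3.13% of all genes). Its smallest p were those of Atp5h (0.11), Cox7a2l (0.15) and Ndufs4 (0.11), each with an adjusted p of 0.983. In these 4 comparisons DESeq2 and limma-voom also passed 0 of the 74. Among the 74 genes no 95% interval reached further from 0 than 0.23 on the log2 scale for alcohol averaged over treatments and 0.16 for CNO averaged over fluids. Each interval holds for 1 gene at a time, and these limits do not cover the other comparisons.

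**Figure D5:**
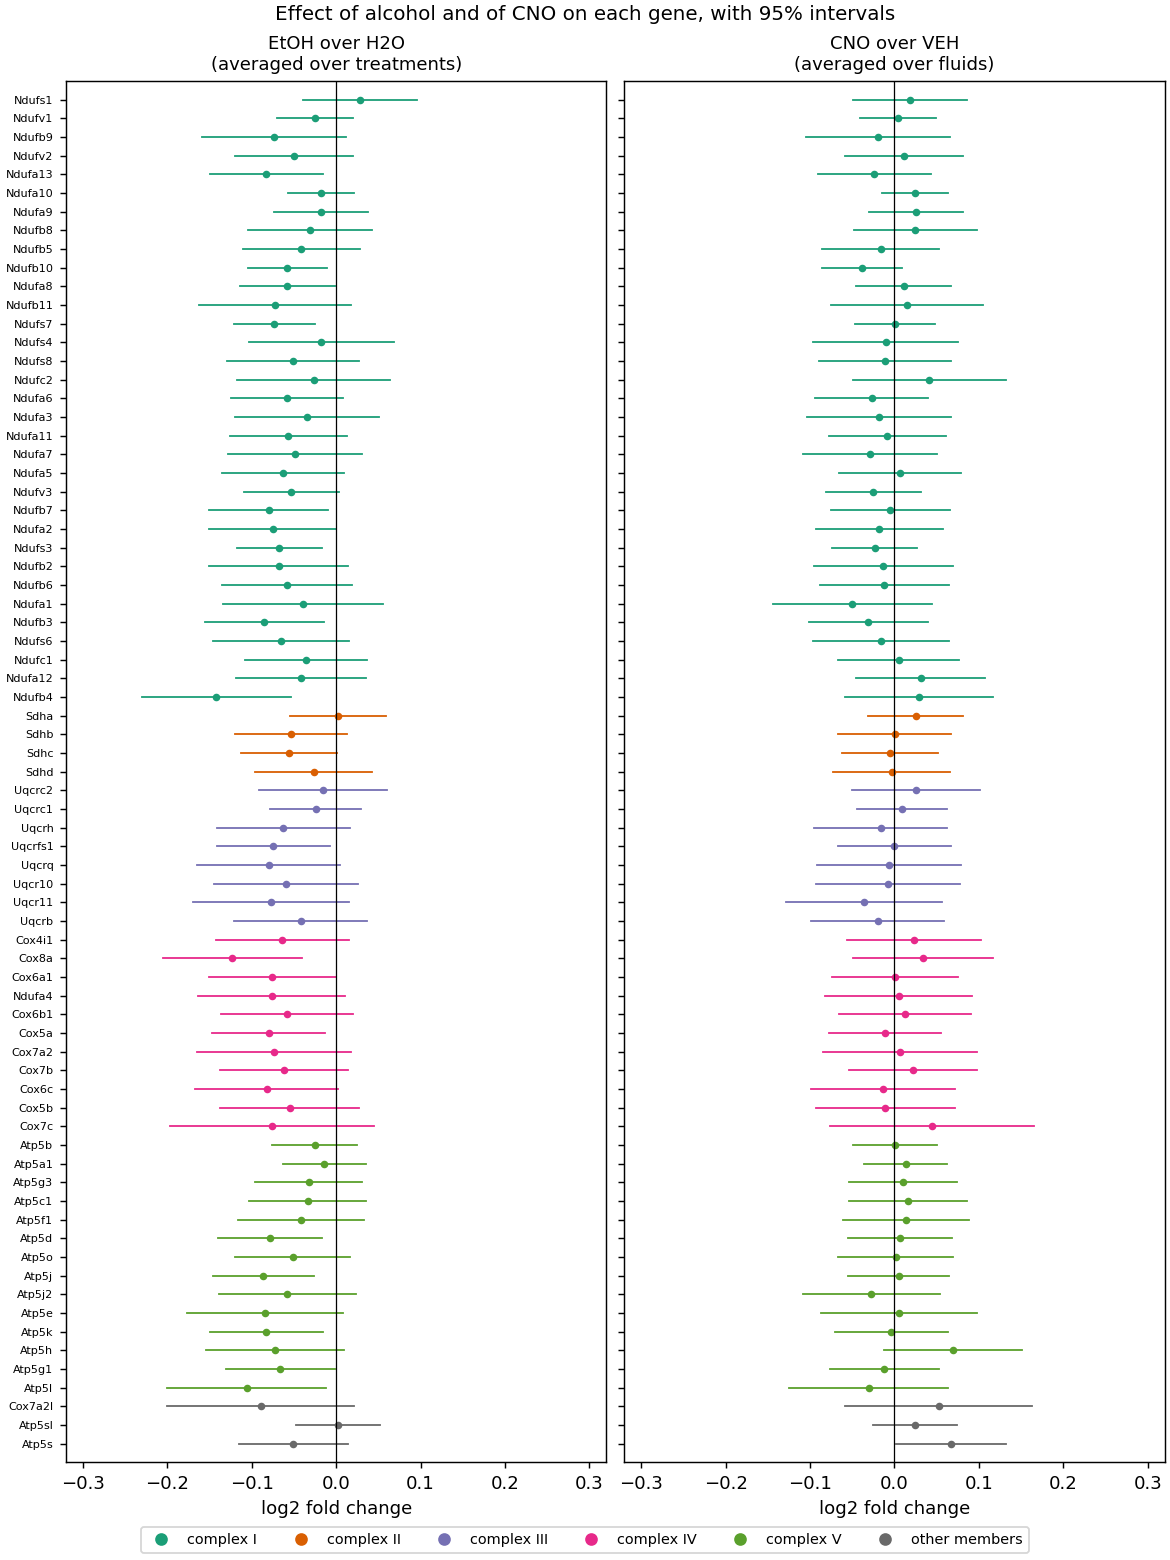
log2 fold change of 73 of the 74 genes with its 95% interval, by complex and mean level, for EtOH over H2O averaged over treatments (left) and CNO over VEH averaged over fluids (right). On the left 70 of the 73 points lie below 0, on the right 34 do, and 0 genes pass after adjustment in either.

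The genes that build and feed the complexes were read in the same fit. On the no-feature share, where 27.4% of all genes were lower and 26.5% higher, the assembly factors of complex I had 5 of 14 lower and 2 higher, led by Foxred1 (0.14 per SD) and Tmem126b (-0.09). Those of complex II had 4 of 4 lower (Sdhaf4 -0.12, Sdhaf2 -0.05) and those of complex III 3 of 6 lower and 0 higher (Uqcc1 -0.08, Uqcc2 -0.10). Those of complex IV had 12 of 20 lower and 2 higher, led by Cox20 (0.18) and Taco1 (-0.12), and those of ATP synthase 2 of 4 lower and 1 higher, led by Tmem70 (-0.10) and the inhibitor Atpif1 (-0.10). Of Cyc1, Cycs and Ndufab1, 2 were lower, Cyc1 (-0.06) and cytochrome c, Cycs (-0.08).

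Upstream of the chain, against the same 27.4% of all genes lower and 26.5% higher, the tricarboxylic acid cycle had 11 of 16 genes lower and 1 higher, led by Pdha1 of pyruvate dehydrogenase (-0.11, adjusted p = 7.1e-15) and Dld (-0.09). All 8 carriers of ADP, ATP and phosphate were lower, with Slc25a4 (-0.10) and Slc25a5 (-0.08) first. Glycolysis had 6 of 16 lower and 2 higher, with Gapdh higher (0.26) and Tpi1 lower (-0.08). Protein import into mitochondria had 12 of 20 lower and 3 higher (Timm44 0.11, Timm10 -0.11), and regulators of mitochondrial biogenesis 4 of 13 lower and 6 higher, led by Polrmt (0.12) and Gabpb1 (0.11). Of 72 cytosolic ribosomal protein genes 41 were lower and 9 higher, with Rpl15 first (-0.10).

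For alcohol averaged over treatments none of these lists held a gene that passed. Median log2 fold changes were -0.03 for complex I assembly (9 of 14 negative; Ndufaf4 -0.06, Ecsit -0.03), -0.03 for complex II assembly (3 of 4; Sdhaf1 -0.06, Sdhaf2 -0.03) and -0.05 for complex III assembly (5 of 6; Uqcc3 -0.08, Uqcc2 -0.06). They were -0.04 for complex IV assembly (17 of 20; Cox14 -0.08, Coa3 -0.08), -0.05 for ATP synthase assembly (3 of 4; Tmem70 -0.09, Atpif1 -0.09) and -0.04 for the 3 carriers and subunits named above (3 of 3; Ndufab1 -0.13, Cyc1 -0.04). The tricarboxylic acid cycle had a median of 0.00 (9 of 16 negative; Mdh2 -0.04, Suclg1 -0.03), glycolysis -0.01 (12 of 16; Aldoa -0.05, Pgam1 -0.05), import -0.04 (18 of 20; Timm50 -0.09, Tomm40 -0.07) and the ADP, ATP and phosphate carriers -0.02 (7 of 8; Slc25a3 -0.05, Slc25a5 -0.02). Ribosomal protein genes had a median of -0.06, like the respiratory genes, with 64 of 72 negative (Rpl34 -0.23, Rps12 -0.13). Among the biogenesis regulators (8 of 13 negative, median -0.02) the coactivators Ppargc1a, which drives transcription of respiratory genes, and Ppargc1b had positive estimates of 0.16 (adjusted p = 0.263) and 0.23 (adjusted p = 0.286).

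Against the other library measures the respiratory genes gave few calls. On the score of cortical glutamatergic markers Ndufc2, a subunit of complex I, was higher (0.07 per SD, adjusted p = 0.0181), where 8.69% of all genes were higher. Of the 74 slopes 67 were positive and 7 negative, where 52.6% of all slopes were negative. Next by p came Atp5e, Cox7a2, Atp5h and Ndufs6 on the positive side and Atp5l, Atp5s, Atp5sl, Sdhc and Ndufs3 on the negative side. Without H2O CNO replicate 1 and EtOH CNO replicate 2, the libraries with the most extreme cortical scores, 30 of the 74 were higher, where 12.7% of all genes were. On the score of interferon-induced genes all 74 slopes were negative (54.2% of all genes) at a median of -0.03 per SD, and Atp5a1 was lower (-0.05, adjusted p = 0.049), where 0.353% of all genes were lower. Atp5b (-0.04), Ndufs1 (-0.05), Uqcrfs1 (-0.05) and Ndufv1 (-0.03) followed without passing, and without EtOH VEH replicates 5 and 10 and H2O VEH replicate 9 Atp5a1 did not pass. On the oligodendrocyte score 0 of the 74 passed in the edgeR test (1.68% of all genes did), 23 had an unadjusted p under 0.05 (16.5% of all genes did), and 69 of 74 slopes were positive at a median of 0.03, where 50.1% of all slopes were negative. Sdhc (0.04), Atp5j2 (0.05), Ndufs6 (0.05), Ndufa5 (0.04) and Ndufa8 (0.03) led the positive slopes and Ndufa10 (-0.02), Cox5a (-0.02), Atp5sl (-0.01), Atp5d (0.00) and Ndufb4 (0.00) the negative ones.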

How the data were processed

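The authors deposited raw counts of reads for each gene symbol, in a separate file for each library. Per the submitters' processing notes, FastQC, STAR and HTSeq 0.9.1 were used with GRCm38 (mm10). For STAR the version, and for counting the annotation, mode and strand setting, were not given in the sources used here. The 5 HTSeq summary lines stayed out of library sizes and tests. The no-feature share is the no-feature reads over assigned, no-feature and ambiguous reads, in percent.

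Groups came from the labels. Genes were filtered by filterByExpr and scaled by TMM, and edgeR 4.0.16 (R 4.3.3, glmQLFit with robust fitting, a coefficient for each group) was fitted over the 45 libraries. Genes passed at a Benjamini-Hochberg adjusted p under 0.05 over 15852 genes. Every adjusted p of a gene is from edgeR unless DESeq2 1.42.0 or limma 3.58.1 (voom) is named. SE is the log2 fold change over the square root of F, and 95% intervals use 41 degrees of freedom. Slopes add 1 library measure to the group terms, and scores are mean log2 CPM with a prior count of 2. Levels are CPM after TMM. Assigned reads ranged from 26.8 to 39.5 M per library, and the least expressed member averaged 6.19 CPM. Lengths and shared windows come from GENCODE vM21 (GRCm38), and the coordinates of the genes from RefSeq. The scripts were tested on simulated data.

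The members, the gene lists, the naming rule and the tests were chosen with earlier results of these data known. Named are the 3 members with the smallest p in each comparison, the 5 in each direction of each slope, the highest and lowest of each complex, those nearest the CPM limit, those of extreme variation, a set of key subunits and the 2 genes with the smallest p of each other list. Genes named for the library classes and the 10 without a called slope were chosen after their values were seen. Alternatives were another scaling, no filter, DESeq2, limma-voom, S-number block (8 blocks inferred from the titles), the no-feature share as covariate, 3 immune-rich libraries or the 2 most extreme libraries left out, each library left out in turn and a threshold of 0.1. Added after seeing the data were divisibility of the title number by 3 and the class as covariates and the slopes within classes. Replicates are different mice. Values of 2 genes that the naming rule would give are not reported here, though both stay in all counts and medians.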

Additional observations from a re-analysis of the deposited data

How the results depend on the processing

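In the 7 comparisons 0 of the 74 genes passed under any alternative run. The count of negative estimates moved as follows. With the no-feature share as covariate it was 40 for alcohol under CNO, 5 for CNO in alcohol drinkers and 2 for the interaction. With the S-number block it was 61 for CNO in water drinkers, 54 for CNO averaged over fluids and 15 for the interaction. Without the 3 immune-rich libraries it was 19 for CNO in alcohol drinkers and 10 for the interaction. With the library class it was 13 and 8 for the same pair. With divisibility of the title number by 3 as covariate it was 24 for CNO in water drinkers. Leaving out each library in turn, the negative estimates numbered 68 to 73 for alcohol under vehicle (median -0.08 to -0.04), 67 to 72 for alcohol under CNO (-0.09 to -0.04) and 71 to 73 for alcohol averaged over treatments (-0.08 to -0.05). They numbered 19 to 60 for CNO in alcohol drinkers (-0.03 to 0.01), 20 to 55 for CNO in water drinkers (-0.02 to 0.02), 27 to 54 for CNO averaged over fluids (-0.01 to 0.01) and 16 to 58 for the interaction (-0.03 to 0.02). The negative counts moved by over 1.5 times without EtOH CNO replicates 3 (60) and 8 (19) or EtOH VEH replicate 5 (21) for CNO in alcohol drinkers. They did so without H2O CNO replicate 11 (24) or H2O VEH replicates 1 (20) and 8 (25) for CNO in water drinkers, and without EtOH CNO replicate 3 (54) for CNO averaged over fluids. For the interaction they did so without any one of EtOH CNO replicates 5, 8, 9 and 12, EtOH VEH replicates 4 and 5, H2O CNO replicates 2, 8 and 9 and H2O VEH replicates 3, 6 and 9 (16 to 27). Genes at an unadjusted p under 0.05 numbered 12 to 40 for alcohol averaged over treatments. They numbered 0 to 25 for alcohol under CNO (25 without EtOH CNO replicate 3, 0 without EtOH CNO replicate 8) and 2 to 13 for alcohol under vehicle (13 without H2O VEH replicate 9). These counts are of the 74 genes, and the matching counts over all genes were not taken. On the no-feature share 57 to 65 genes passed as lower, except 3 with the class, 49 with divisibility of the title number by 3, 0 above the gap (24 negative slopes, median log2 slope 0.0186) and 1 below it, where fewer libraries were fitted. Below the gap 71 slopes were negative, at a median log2 slope of -0.0740. Of the 64 genes that passed over all libraries, the slope was positive for 42 above the gap, for 9 with the class and for 1 below the gap. On the cortical score 0 passed with the S-number block and 30 without the 2 most extreme libraries, with 22 and 2 negative slopes, and 13 slopes were negative without the 3 immune-rich libraries. On the interferon score 0 passed with the other scaling, without the filter, without the 3 immune-rich libraries and without the 2 most extreme ones. On the oligodendrocyte score 3, 9 and 8 slopes were negative without the filter, with the S-number block and without the 3 immune-rich libraries. Apart from the differences named, the cause was not tested. No paired analysis was possible because each library is a different mouse and the mouse numbers of the labels pair no mice across groups.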
